A study of Homo sapiens with 4 samples.

Results

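The nuclear genes for subunits of respiratory complex I were followed in RNA that co-precipitated with the motor protein KIF5A. Members were chosen by symbol alone, as NDUFA, NDUFAB, NDUFB, NDUFC, NDUFS or NDUFV followed by a number, which gave 38 of the 60719 genes listed in the count tables. Complex I is the entry point of the mitochondrial respiratory chain: it oxidises NADH, passes the electrons through a flavin and a row of iron-sulfur clusters to ubiquinone, and pumps protons. Its matrix arm carries the electron path and its membrane arm the pumps. Most subunits are encoded in the nucleus, translated in the cytosol and imported into mitochondria, and a few are made inside the organelle. Kinesin-1, the motor to which KIF5A belongs, carries mitochondria along microtubules through TRAK adaptors and Miro GTPases.

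The d27 libraries came from a human neuroblastoma line, SKNAS, transfected with V5-tagged d27 KIF5A, a mutant that the series title places among KIF5A mutations associated with amyotrophic lateral sclerosis. They were set against libraries from the same line transfected with V5-tagged WT KIF5A. RNA was taken from anti-V5 bead precipitates begun a day after transfection, with 2 precipitates of each construct. No input or mock precipitate was used here, so each value compares d27 with WT precipitates. Less of an mRNA in the cells, fewer cells that hold it and less of it recovered with the motor cannot be told apart. The labels do not say whether the 2 precipitates of a construct came from separate cultures, so the p-values reflect a spread between libraries that could be purely technical.

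Gene counts totalled 18335151 and 10483082 in d27 replicates 1 and 2, against 8142869 and 10811134 in WT replicates 1 and 2. Reads that aligned to several places made up 9.10% and 17.1% of all table entries in d27 and 23.7% and 22.8% in WT, a difference that moves with the construct, and its part in the results below was not tested. CPM below is the count scaled to a common library total after TMM normalisation. KIF5A took 9.03% to 14.8% of gene counts per library. Of 8 adrenergic neuroblastoma markers, HAND2 and GATA3 were present in every library, and TH and DBH were at or under 1.48 CPM. Of 8 mesenchymal markers, all had counts in every library. Of 8 markers of other cell types, HBB, EPCAM, KRT5, GFAP and AIF1 had 0 counts in every library, but PTPRC, a leukocyte marker, had 101 and 79.5 CPM in d27, against 190 and 162 CPM in WT. The summed level of the 8 adrenergic markers was 735 and 589 CPM in d27, against 848 and 829 CPM in WT. That of the mesenchymal markers was 3539 and 3344 CPM in d27, against 4237 and 4769 CPM in WT, and that of the other cell types, nearly all PTPRC, 101 and 79.9 CPM in d27, against 191 and 163 CPM in WT. All 3 sums were lower in d27, as the complex I genes mostly were, and their part in the results was not tested. The sums weigh abundant genes most, and single markers went both ways. Of the 8 mesenchymal markers, 4 had a log2 fold change of d27 over WT below 0 and 4 above, with a median of 0.02. Of the 7 adrenergic markers tested, 5 were below 0 and 2 above.

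To show the control regions of the genes under study, 30-base windows are given around matches to a motif of NRF1 (GCGCA, any base, then GCGC), the transcription factor long known for activating respiratory chain genes. In RefSeq promoters (GRCh38.p14, from 250 bases before to 50 after a gene's start), 32 of the 38 genes had an entry. On either strand, 6 of 39 member promoters (15.4%) held the motif, against 5.78% of all 35116 promoters. The ETS core GGAAG was in 82.1% of member promoters and 71.9% of all. A match is a description of the letters only. Capitals mark the NRF1 match, and each window reads 5′ to 3′ on the strand of the gene.
NDUFB4, chr3:120596167-120596196, plus strand: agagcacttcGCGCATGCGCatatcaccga
NDUFA8, chr9:122159764-122159793, minus strand: gttgccggatGCGCATGCGCaggcgccgtg
NDUFA12, chr12:95003794-95003823, minus strand: acctagctctGCGCACGCGCagagccacca
NDUFA3, chr19:54102675-54102704, plus strand: ctgcgcgagtGCGCACGCGCaggctccgaa
NDUFA9, chr12:4649024-4649053, plus strand: ttcttggttaGCGCTTGCGCagacaggcga
NDUFA11, chr19:5903869-5903898, minus strand: ccggtccccgGCGCGTGCGCgcgatccatg
In the NDUFA9 and NDUFA11 windows the motif lies on the opposite strand, so its complement is printed. Of the 6 genes with a match NDUFB4 fell in d27. The others did not pass: NDUFA8 and NDUFA12 had log2 fold changes of -0.94 and -0.69 with no overlap between groups, and NDUFA3, NDUFA9 and NDUFA11 overlapped.

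Of the complex I mRNAs tested one by one, 3 fell in d27 (NDUFB4, NDUFV1 and NDUFS5), 1 rose (NDUFA5) and 33 did not pass. These 4 calls among 37 members are close to the share over all genes, of which 11.7% were called in either direction. The 37 are those with enough counts to pass the low-count filter, and NDUFA7 was the 1 left out. Over all 14909 genes tested, 3.70% were called lower and 8.00% higher in d27 (edgeR quasi-likelihood test, Benjamini-Hochberg adjusted p below 0.05). The log2 fold change of d27 over WT was below 0 for 27 of the 37 members, against 50% of all genes, and its median was -0.63, against 0.00 for all genes. Both d27 libraries lay below both WT libraries for 23 members and above them for 5, against 29.8% and 31.4% of all genes, and the groups overlapped for 9. At an unadjusted p under 0.05, 13 members were lower and 1 higher, against 13.6% and 17.0% of all genes. DESeq2 gave an adjusted p to 33 members and called 8 lower and 1 higher, against 9.13% and 14.1% of all genes. Without d27 replicate 1, the deepest library, edgeR called 0 members in either direction, against 0.431% of all genes lower and 4.23% higher. At an unadjusted p under 0.05 that fit had 3 members lower and 1 higher, against 5.98% and 10.3% of all genes. The members' median then became -0.40, with NDUFA5 at 1.47, NDUFB4 at -1.39, NDUFV1 at -0.90 and NDUFS5 at -0.85. With library totals in place of TMM 0 members fell, against 1.91% of all genes (11 at an unadjusted p under 0.05, against 11.5%), and NDUFA5 was the 1 that rose, against 5.96% of all genes.

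**Figure D1:**
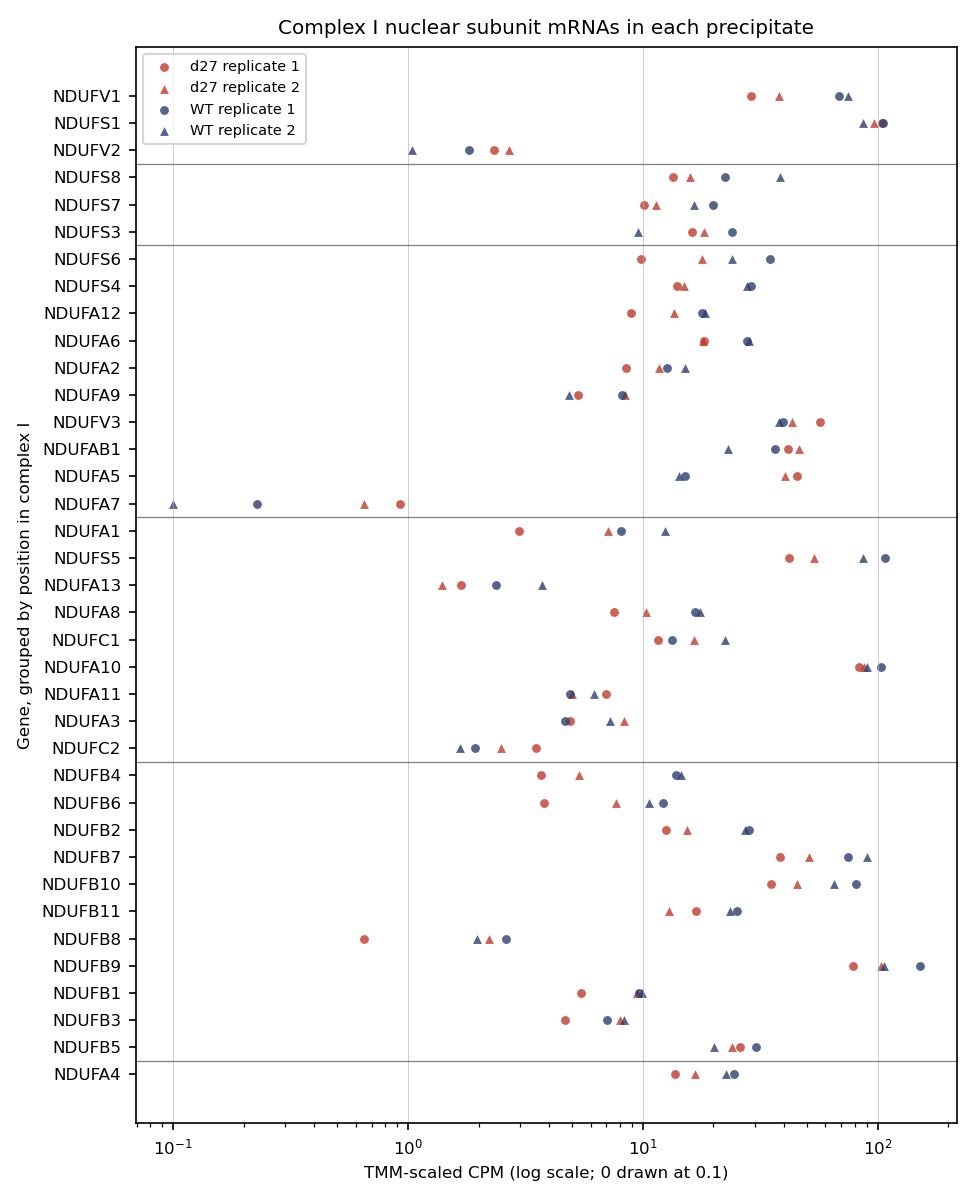
TMM-scaled CPM (log axis) of 37 complex I nuclear subunit genes in the 2 d27 libraries (red) and the 2 WT libraries (blue), 1 point per library, with genes grouped by position in the complex. Red points lie left of blue for 22 of the 36 tested genes drawn, and the 4 genes that passed edgeR, NDUFV1, NDUFA5, NDUFS5 and NDUFB4, are among those with separated points; NDUFA7 was not tested, and its WT replicate 2 value of 0 is drawn at 0.1.

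The electron input module begins with NDUFV1, the subunit that binds NADH and the flavin (ENSG00000167792.13, GRCh38 chromosome 11, 67605653 to 67612554, plus strand). It had 28.8 and 38.1 CPM in d27 replicates 1 and 2, against 68.4 and 74.9 CPM in WT replicates 1 and 2. Both d27 libraries were low and the groups did not overlap, with a log2 fold change of -1.10 ± 0.26 (SE, n = 2 per group) and an edgeR adjusted p of 0.0365. The call was lost without d27 replicate 1 (adjusted p = 0.241), without WT replicate 2 (0.0587) and with library totals (0.0623). NDUFS1, the largest iron-sulfur subunit, had 104 and 96.9 CPM in d27, against 105 and 86.7 CPM in WT, so the groups overlapped (log2 fold change 0.07 ± 0.23). NDUFV2, another iron-sulfur subunit, had only 43 and 29 counts in d27, against 16 and 10 counts in WT (0.81 ± 0.75). Its transcript lies for 82.9% of its length inside another gene on the same strand, and a pseudogene of it held 57 counts.

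The quinone module, which hands electrons to ubiquinone, had 4 core members, of which 0 were called by edgeR, with 3 lower at an unadjusted p under 0.05 and 1 called lower by DESeq2, too few genes to set against the shares over all genes. NDUFS8, an iron-sulfur subunit, had 13.5 and 15.9 CPM in d27, against 22.4 and 38.4 CPM in WT (log2 fold change -1.05 ± 0.34, edgeR adjusted p = 0.0849). NDUFS7, which carries the last cluster before the quinone, had 10.1 and 11.4 CPM in d27, against 20 and 16.5 CPM in WT (-0.76 ± 0.31). For both genes the d27 libraries were the lower ones and the groups did not overlap. NDUFS3 behaved otherwise: it had 16.3 and 18.3 CPM in d27, between the 24.1 and 9.53 CPM of the WT libraries (0.04 ± 0.44).

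The accessory subunits of the matrix arm, 10 in number with 9 tested, held the single rise, against 8.00% of all genes called higher. At an unadjusted p under 0.05, 2 of the 9 were lower and 1 higher, against 13.6% and 17.0% of all genes. NDUFA5, which packs against the quinone module (ENSG00000128609.16, GRCh38 chromosome 7, 123536997 to 123558255, minus strand), had 45.6 and 40.2 CPM in d27, against 15.1 and 14.3 CPM in WT. Its d27 libraries were 2.92 times as high by the fit (log2 fold change 1.55 ± 0.27 SE, edgeR adjusted p = 0.0174, n = 2 per group). The log2 fold change kept between 1.47 and 1.66 over 13 alternatives, and the call was lost only without d27 replicate 1, where it was 1.47. NDUFA5 has 12 named pseudogenes, which together held 3 counts.

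Also above WT in both d27 libraries, though not called, were NDUFAB1 and NDUFV3. NDUFAB1, the mitochondrial acyl carrier protein, which also serves fatty acid synthesis, had 41.6 and 46.3 CPM in d27, against 36.4 and 23.1 CPM in WT (log2 fold change 0.56 ± 0.30). NDUFV3, a small accessory subunit near the flavin site, had 56.7 and 43.1 CPM in d27, against 39.6 and 38.1 CPM in WT (0.36 ± 0.26). NDUFS4, lost in a form of Leigh syndrome, went the other way, with 14.0 and 14.9 CPM in d27, against 29 and 27.9 CPM in WT (-0.98 ± 0.28, edgeR adjusted p = 0.0584). NDUFS6, NDUFA12, NDUFA6 and NDUFA2 had log2 fold changes from -1.10 to -0.47 with no overlap between groups, and NDUFA9 overlapped (0.07). NDUFA7 was not tested. It had 17 and 7 counts in d27, against 2 and 0 counts in WT, a ratio of 7.89 with an exact counting interval of 1.96 to 68.9, and 75.9% of its transcript lies in another gene on the same strand.

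In the proximal membrane arm, 9 accessory subunits were tested, of which 1 fell, 0 rose and 8 did not pass. Over all genes 3.70% were called lower and 8.00% higher. At an unadjusted p under 0.05, 2 of the 9 were lower and 0 higher, against 13.6% and 17.0% of all genes. DESeq2 called 1 lower and 0 higher, against 9.13% and 14.1% of all genes. NDUFS5, a cysteine-rich subunit of the intermembrane space face (ENSG00000168653.11, GRCh38 chromosome 1, 39026318 to 39034636, plus strand), had 42.1 and 53.4 CPM in d27, against 108 and 86.7 CPM in WT. The groups did not overlap, and the fit put d27 at -1.03 ± 0.26 on the log2 scale (SE, n = 2 per group; edgeR adjusted p = 0.0418). With an offset for GC content and exon length it became -0.48 (adjusted p = 0.146), and the call was also lost without d27 replicate 1 (0.243), without WT replicate 1 (0.0509) and with library totals (0.0809).

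NDUFA8, which has the same cysteine-rich fold as NDUFS5, had a log2 fold change of -0.94 ± 0.33 with no overlap. NDUFA1 (-1.03 ± 0.52), NDUFA13, also known as GRIM-19 (-0.98 ± 0.70), and NDUFA10 (-0.18 ± 0.23) were likewise lower in both d27 libraries without passing. NDUFC1, NDUFA3 and NDUFA11 overlapped between groups. NDUFC2 had 65 and 27 counts in d27, against 17 and 16 counts in WT, and its log2 fold change of 0.75 ± 0.67 was the only positive one in this arm without overlap.

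In the distal membrane arm, the outer proton-pumping end, the members as grouped here are the 11 accessory NDUFB subunits. NDUFAB1, with a log2 fold change of 0.56, was counted with the matrix arm only. Each of the 11 had a log2 fold change below 0, against 50% of all genes, with a median of -0.71 and a range from -1.66 to -0.02. Of the 11, 1 fell and 10 did not pass, against 3.70% of all genes called lower. Both d27 libraries lay below both WT libraries for 8 members, against 29.8% of all genes. At an unadjusted p under 0.05, 5 were lower and 0 higher, against 13.6% and 17.0% of all genes. DESeq2 called 4 lower, against 9.13% of all genes. NDUFB5 and NDUFB3, whose groups overlapped, did not keep their sign in every alternative, reaching 0.35 and 0.07. NDUFB4 (ENSG00000065518.8, GRCh38 chromosome 3, 120596309 to 120602500, plus strand) had 3.69 and 5.38 CPM in d27, against 13.8 and 14.6 CPM in WT, from 68 and 58 counts in d27 and 122 and 141 counts in WT. It was 3.15 times as high in WT by the fit (log2 fold change -1.66 ± 0.39 SE, edgeR adjusted p = 0.0354, n = 2 per group). The call was lost without d27 replicate 1 (adjusted p = 0.258) and with library totals (0.0533). NDUFB4 has 12 named pseudogenes, which held 60 counts beside its own 389, and reads that align equally well to several copies may be missing from its count.

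Other distal subunits came close to the threshold. NDUFB7, a cysteine-rich subunit of the intermembrane space side, had 38.3 and 51.0 CPM in d27, against 75.0 and 90.5 CPM in WT (log2 fold change -0.89 ± 0.26, edgeR adjusted p = 0.0651). NDUFB10, another such subunit, had 35.3 and 45.6 CPM in d27, against 81.1 and 65.2 CPM in WT (-0.86 ± 0.27, edgeR adjusted p = 0.0741). NDUFB2 had 12.6 and 15.5 CPM in d27, against 28.3 and 27.2 CPM in WT (-0.98 ± 0.29, edgeR adjusted p = 0.0629). In each of these the 2 d27 libraries were the lower ones. Opposite-strand genes cover 83.4% of the NDUFB2 transcript and 37.9% of that of NDUFS7. Such cover reached at least 10% in 9 members, which also include NDUFB11 (45.8%), NDUFA1 (44.5%), NDUFB9 (26%), NDUFA2, NDUFA3, NDUFS1 and NDUFA7. Without the strand setting of the counting, reads of the 2 strands cannot be told apart there.

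NDUFB9, which had the highest mean level per length over the 4 libraries, had 78.3 and 103 CPM in d27, against 151 and 106 CPM in WT (log2 fold change -0.51 ± 0.27). Here d27 replicate 2 and WT replicate 2 were nearly equal, and the distance came from the other pair. NDUFB6, NDUFB11 and NDUFB1 were separated without passing (-1.01, -0.71 and -0.40), and NDUFB8, NDUFB3 and NDUFB5 overlapped. NDUFA4, which carries the family name but is now assigned to cytochrome c oxidase, had 13.8 and 16.7 CPM in d27, against 24.4 and 22.6 CPM in WT (-0.63 ± 0.29, edgeR adjusted p = 0.186). Leaving it out put the median of the other 36 tested members at -0.66.

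**Figure D2:**
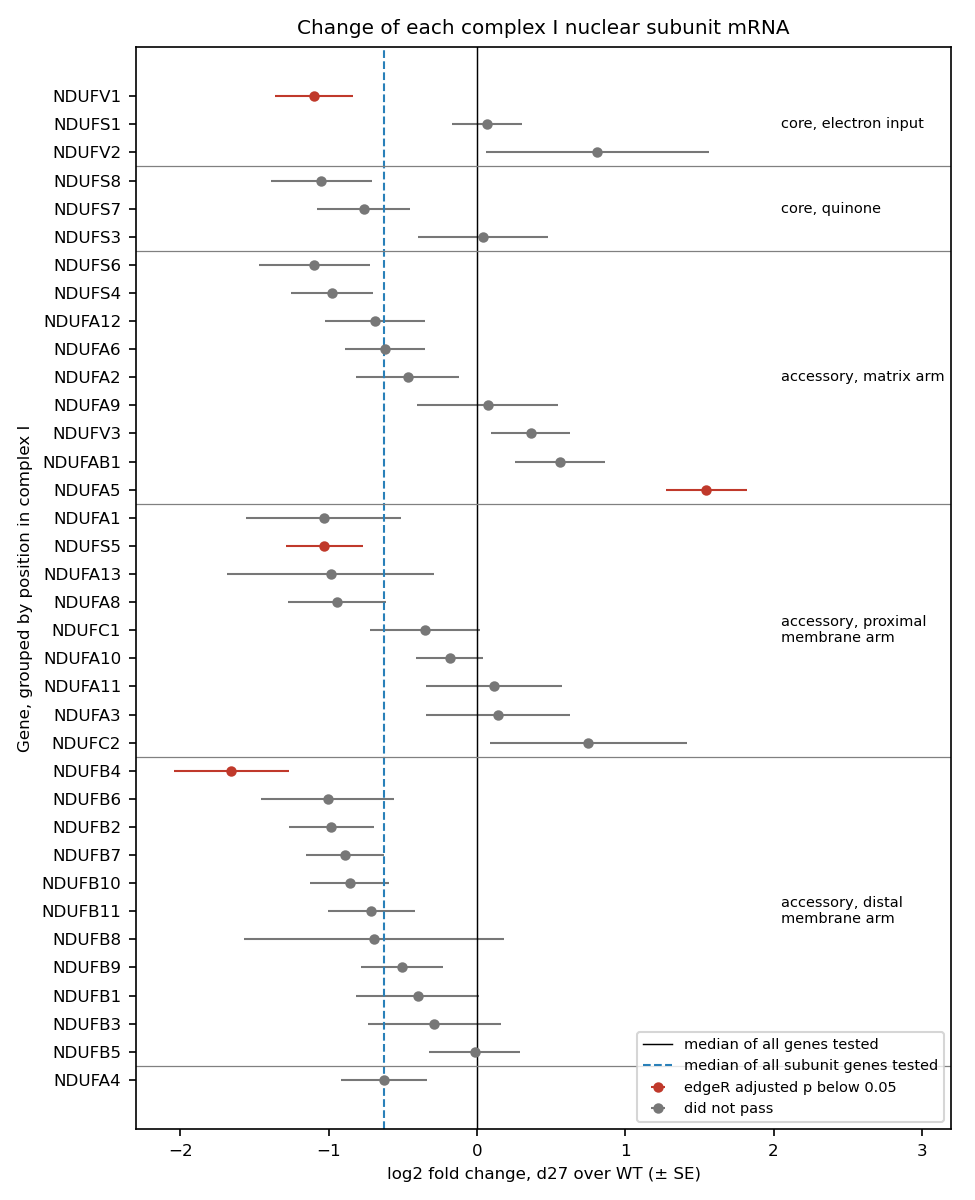
Log2 fold change of d27 over WT with its SE for 36 tested subunit genes, grouped by position in complex I. The 4 genes in red passed edgeR, and the dashed line at -0.63 is the median of all 37 tested subunit genes. All 11 points grouped as distal membrane arm, the NDUFB subunits, lie below 0.

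The members differed widely in level. Scaled to the length of 1 chosen GENCODE transcript each, the mean over the 4 libraries ran from 154 CPM per kb for NDUFB9 to 0.748 for NDUFA7, a 206-fold range. NDUFB9 had 110 and 145 CPM per kb in d27 and 213 and 150 in WT. NDUFS5 had 76.8 and 97.4 CPM per kb in d27 and 197 and 158 in WT, and NDUFB7 had 72.1 and 96.0 in d27 and 141 and 170 in WT. Each of the 37 neighbouring pairs in this order overlapped in their ranges over libraries, so no single step in the order exceeds that spread. At the low end, NDUFA9 had 0.636 and 1.01 CPM per kb in d27 and 0.977 and 0.582 in WT, and NDUFC2 had 1.40 and 0.994 in d27 and 0.766 and 0.658 in WT.

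Low levels went with shared annotation. In 8 members another gene on the same strand covers at least 10% of the transcript: NDUFA7, NDUFA9, NDUFA11, NDUFA13, NDUFB8, NDUFC2, NDUFV1 and NDUFV2. Their median level was 2.22 CPM per kb, against 15.9 CPM per kb in the other 30. HTSeq by default sets aside a read that falls on more than 1 gene, and the part this had in the levels was not tested. The median log2 fold change of the 30 was -0.66, against 0.07 for the 7 of the 8 that were tested.

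By library, the nuclear subunits stood lowest in d27 replicate 1. The median of log2 CPM minus the mean over the 4 libraries was -0.46 in d27 replicate 1 and -0.05 in d27 replicate 2, against 0.29 and 0.27 in WT replicates 1 and 2. The lowest of the 4 values fell in d27 replicate 1 for 23 of 37 members, in d27 replicate 2 for 3, in WT replicate 1 for 2 and in WT replicate 2 for 9. Summed over the 38 genes, complex I mRNAs took 0.0855% and 0.1% of gene counts in d27, against 0.140% and 0.108% in WT. The exact binomial 95% intervals were 0.0842% to 0.0869% and 0.0981% to 0.102% in d27, and 0.138% to 0.143% and 0.106% to 0.110% in WT. These cover counting error only. The groups did not overlap, but d27 replicate 2 and WT replicate 2 lay closer to each other than WT replicate 2 lay to WT replicate 1. That order held with KIF5A left out of the total but not on TMM-scaled totals. There d27 replicate 2 had 0.0972%, against 0.130% and 0.121% in WT replicates 1 and 2, so the WT libraries were the closer pair.

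**Figure D3:**
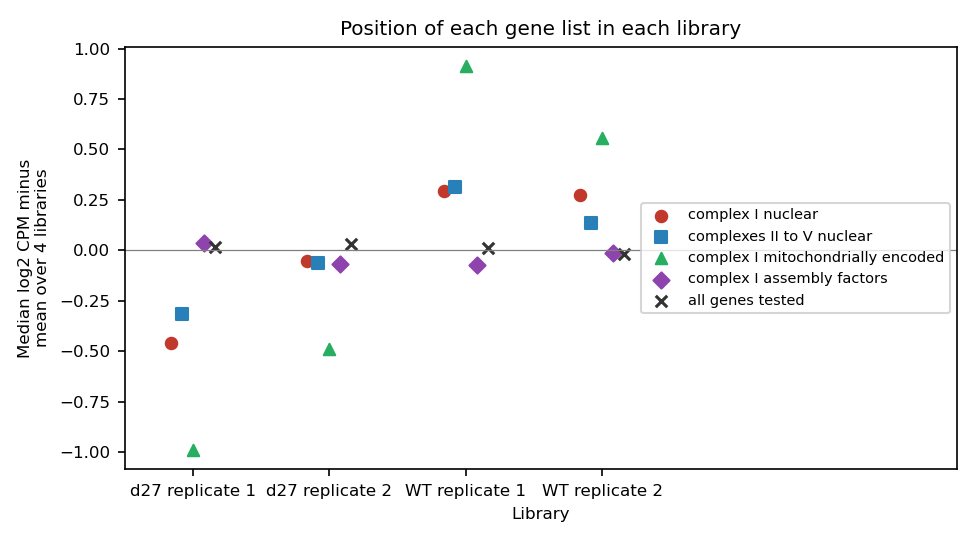
Median over each gene list of log2 CPM minus the gene's mean over the 4 libraries, by library. The nuclear complex I subunits lie at -0.46 and -0.05 in d27 and at 0.29 and 0.27 in WT, the mitochondrially encoded subunits spread wider, and the assembly factors stay near 0.

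The partner mRNAs made inside mitochondria were mostly lower in d27. Of the 7 complex I subunits encoded by mitochondrial DNA, 5 fell, 0 rose and 2 did not pass, against 3.70% of all genes called lower. At an unadjusted p under 0.05, 7 were lower and 0 higher, against 13.6% and 17.0% of all genes. DESeq2 called 6 lower and 0 higher, against 9.13% and 14.1% of all genes. Their log2 fold changes lay between -2.06 and -1.08 with a median of -1.45, and the groups were separated for all 7. MT-ND2 had 219 and 269 CPM in d27, against 770 and 613 CPM in WT (-1.50 ± 0.27, edgeR adjusted p = 0.0182). MT-ND6 and MT-ND5 fell by 2.06 and 1.57 on the log2 scale. Without d27 replicate 1 the number that fell was 1.

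Assembly factors, which build complex I but are not part of it, lay on both sides of 0. Of 19 tested, 1 rose, 0 fell and 18 did not pass, against 8.00% of all genes called higher and 3.70% lower. At an unadjusted p under 0.05, 2 were lower and 1 higher, against 13.6% and 17.0% of all genes. DESeq2 called 1 lower and 1 higher, against 9.13% and 14.1% of all genes. The median log2 fold change was -0.15. DMAC2, an assembly factor of the distal membrane arm, had 73.3 and 87.0 CPM in d27, against 20.1 and 15.2 CPM in WT. Its log2 fold change of 2.18 ± 0.28 (edgeR adjusted p = 0.00847) passed in all 13 alternatives. ACAD9, an assembly factor related to acyl-CoA dehydrogenases, had 35.1 and 36.5 CPM in d27, against 59.0 and 82.7 CPM in WT (-0.99 ± 0.27, edgeR adjusted p = 0.0528).

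Among the nuclear subunits of complexes II to V a few of complexes III and IV fell. Of 40 tested, 4 fell, 0 rose and 36 did not pass, against 3.70% of all genes called lower and 8.00% higher. At an unadjusted p under 0.05, 13 were lower and 1 higher, against 13.6% and 17.0% of all genes. DESeq2 called 9 lower and 1 higher, against 9.13% and 14.1% of all genes. The median log2 fold change was -0.49, with 28 below 0. UQCRH, the hinge subunit of complex III, had 49.4 and 72.9 CPM in d27, against 136 and 173 CPM in WT (-1.34 ± 0.28, edgeR adjusted p = 0.0269). In complex IV, COX5B, COX7C and COX6B1 fell by 1.46, 1.07 and 1.10 on the log2 scale. Without d27 replicate 1 none of these 4 passed (edgeR adjusted p from 0.102 to 0.254), the 3 of complex IV did not pass without WT replicate 2 (0.0517 to 0.0839), and COX6B1 did not without d27 replicate 2 (0.1). With library totals COX6B1 (0.0621) and COX7C (0.0673) did not pass, and with the offset for GC content and exon length COX6B1 did not (0.0548). ATP5F1A and ATP5F1B, the catalytic core of ATP synthase, had -0.14 and -0.02 and did not pass. No test of a difference between the complexes was made.

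Of 9 regulators of mitochondrial biogenesis, TFAM, which packages and transcribes mitochondrial DNA, rose, with 87.7 and 72.7 CPM in d27, against 35.3 and 25.8 CPM in WT (log2 fold change 1.39 ± 0.28, edgeR adjusted p = 0.0227; 0.0624 without d27 replicate 1). The other 8 did not pass, and 8.00% of all genes were called higher. At an unadjusted p under 0.05, 3 of the 9 regulators were higher and 0 lower, against 17.0% and 13.6% of all genes. DESeq2 called 2 higher and 0 lower, against 14.1% and 9.13% of all genes. NRF1 itself had 24.3 and 23.6 CPM in d27, against 26.0 and 26.9 CPM in WT (-0.14 ± 0.27). GABPB1, a subunit of an ETS-family activator, had 1.34 ± 0.42 (edgeR adjusted p = 0.0771). Of the 4 genes for the mitochondrial adaptors of kinesin-1, 0 were called by edgeR, at an unadjusted p under 0.05 or by DESeq2. TRAK1 had -0.81 ± 0.37, and TRAK2, RHOT1 and RHOT2 lay between -0.17 and 0.16.

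Complex I mRNAs are short, and fold changes varied with coding length in these libraries. Over the 12299 tested protein-coding genes with a coding length, the median log2 fold change was 0.37 for the 1533 genes with up to 600 coding bases and -0.57 for the 2800 with more than 2400. Complex I members lay on the other side of the short genes: 28 of them code in up to 600 bases, with a median of -0.66, and 22 of these 28 were below 0, against 38.3% of all genes in that range. Of the 28, 2 were called lower, against 2.41% of all genes of that coding length. This was not particular to complex I. The nuclear subunits of complexes II to V had a median coding length of 397.5 bases, against 432 for complex I. Their median log2 fold change was -0.49, against -0.63. Another 6 members had coding lengths of 601 to 1200 bases (median -0.07) and 3 had 1201 to 2400 (median -0.82), too few for a trend. Within the 37 members, the correlation of log2 fold change with log2 transcript length was r = 0.34 (Spearman 0.26), with GC content r = -0.36 (-0.31) and with log2 mean CPM r = -0.13 (-0.12). These are across genes that share the same 4 libraries, and they are given as descriptions.

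**Figure D4:**
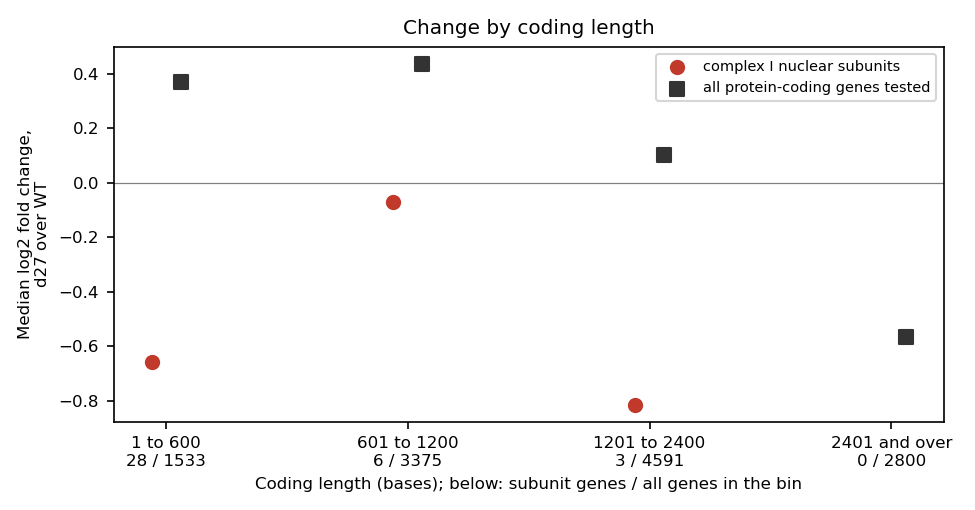
Median log2 fold change of d27 over WT by coding length for the complex I nuclear subunits (red circles) and all tested protein-coding genes (black squares), with the number of genes under each bin. In the bin of up to 600 coding bases, the 28 subunit genes have a median of -0.66 and all 1533 genes one of 0.37; the other subunit bins hold 6 and 3 genes.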

How the data were processed

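Each library's deposited table holds unnormalised HTSeq read counts by gene; HTSeq, DESeq2 and GRCh38 are named in the submitters' processing notes. The aligner, versions, annotation release and strand setting: not given in the sources used here. Per the labels' protocols, RNA was depleted of ribosomal RNA and made into stranded libraries. HTSeq's summary entries (25.9% and 36.8% of all entries in d27, 47.6% and 47.3% in WT) stayed out of library sizes and tests. Symbols came from a gene name table, and positions, overlaps, lengths and GC content from GENCODE release 29 (GRCh38), in which 58488 of 60719 genes and all 38 members had an entry. Lengths are of 1 transcript per gene, APPRIS principal first.

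Testing used edgeR 4.0.16 under R 4.3.3, with TMM, filterByExpr (minimum count 10, minimum total 15), glmQLFit (robust) and glmQLFTest on group, with Benjamini-Hochberg adjustment over 14909 genes and a threshold of 0.05. SEs were derived from the fold change and its F statistic. DESeq2 1.42.0 was an alternative. On simulated d27 against WT counts (14225 genes tested) 18.7% of 2-fold and 78.9% of 4-fold changes were recovered and 6 unchanged genes called. A count of 0 allows up to 3 counts, 0.164 and 0.286 CPM in d27 and 0.368 and 0.277 CPM in WT. Intervals cover counting error only. Named genes were the called members, the 10 of lowest p, the core subunits, the level extremes, NDUFA4, members higher in d27 without overlap, and up to 3 called genes of each other list; 1 core subunit and 1 marker are counted in their lists but not reported singly here. Members, lists and tests were chosen with earlier results of these data known.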

Additional observations from a re-analysis of the deposited data

How the results depend on the processing

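With 2 libraries per group, leaving out 1 moves most counts. The number of nuclear complex I genes called lower (3) ranged from 0 to 8 and called higher (1) from 0 to 2, with medians from -0.71 to -0.40. The highest counts, 8 and 2, came without WT replicate 1. Over all genes the higher calls (1192) ranged from 697 to 2715 and the lower calls (551) from 71 to 2136. For the mitochondrially encoded subunits the lower calls ranged from 1 to 7 and the median from -1.74 to -1.17. For assembly factors the lower calls ranged from 0 to 3 and the median from -0.18 to -0.013. For complexes II to V the higher calls ranged from 0 to 3, the lower calls from 1 to 10 and the median from -0.58 to -0.29. The lone library of a group is then assumed to vary like the other group.

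The number of nuclear complex I genes called lower was 8 with DESeq2, 0 with library totals, 8 with at least 50 counts in 2 libraries, 9 with the replicate block, 10 with the replicate block and an offset for GC and exon length, and 5 with that offset alone. All 4 called members kept their sign in all 13 alternatives, and the median over members stayed between -0.71 and -0.40. Of the 33 members not called, 22 were called in none of the alternatives and 11 in at least 1, and 9 of the 37 changed sign in at least 1. DESeq2 and the fit with no filter gave log2 fold changes for 31016 genes, with medians of 0.26 and 0.31. DESeq2 gave an adjusted p to 12173 of them. Under DESeq2 size factors the median of all genes moved to 0.01. The cause of these differences was not tested.

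For assembly factors the lower calls (0) became 1 with DESeq2 and with no filter, 2 with at least 50 counts, with the offset and with the replicate block, and 3 with the replicate block and offset. Their median became -0.082 with no filter, -0.24 with the offset and -0.25 with the replicate block and offset. For complexes II to V, 1 gene was called higher under each of DESeq2, no filter, at least 50 counts, the offset and both block fits. The lower calls (4) became 9 with DESeq2, 2 with library totals, 7 with no filter, 8 with at least 50 counts, 7 with the offset, 11 with the replicate block and 15 with the replicate block and offset. Over all genes the higher calls became 1888 with no filter, 2137 with the replicate block and 2350 with block and offset. The lower calls became 1112 with DESeq2, 285 with library totals, 974 with no filter, 959 with at least 50 counts, 1438 with the replicate block and 1645 with block and offset.

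The labels give both constructs the numbers 1 and 2 but do not say that a number marks a shared culture or day. For that reason the numbers were not treated as a pairing, and the replicate block was run as an alternative. Deviations from the group means of the libraries numbered 1 correlated at r = 0.10 across genes. That value cannot settle whether a culture or day was shared. The summed share of complex I mRNAs, as a percent of TMM-scaled totals, was 0.0972% in d27 replicate 2 and 0.130% and 0.121% in WT replicates 1 and 2. With KIF5A left out of the total it was 0.0959% and 0.113% in d27 and 0.154% and 0.127% in WT. Leaving out, as an alternative chosen after seeing the data, the members that share at least 10% of their transcript with a gene on the same strand gave 2 lower and 1 higher call, and leaving out those that share as much with the opposite strand gave 3 and 1. At this depth members with under about 50 counts per library, such as NDUFV2, NDUFB8 and NDUFA13, have SEs of 0.70 to 0.88. Changes of that size were not detectable, and larger ones could be missed too: NDUFA13 had -0.98 ± 0.70 and did not pass.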
